A study of Homo sapiens with 6 samples.

Results

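HIF1A and EPAS1 are the oxygen-regulated alpha subunits of the hypoxia-inducible factors, and they were followed here in sorafenib-resistant liver cancer cells together with 8 genes that these factors are known to induce. The 10 genes were taken by symbol, and all 10 were present among the 16305 genes of the RNA-seq files. They comprise HIF1A and EPAS1, the oxygen sensors EGLN1 and EGLN3, the secreted peptides VEGFA and ADM, the carbonic anhydrase CA9, the mitochondrial protein BNIP3, the ankyrin repeat protein ANKRD37 and NDRG1. The lower HIF1A level after fostamatinib, among earlier results of these data, was known when the genes and the wider lists below were chosen. The question was how its partner subunits, its sensors and its target genes stood beside it.

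In cells with sufficient oxygen, prolyl hydroxylases of the EGLN family mark the alpha subunits for recognition by VHL and for destruction, and HIF1AN blocks their contact with coactivators. When oxygen falls, the alpha subunits persist, pair with ARNT and bind short DNA elements with the core ACGTG or GCGTG near target genes for angiogenesis, glycolysis, acid export and mitophagy. Much of this control acts on the protein, whereas the values below are messenger RNA levels. EGLN3, and to a lesser degree EGLN1, are themselves targets and thus part of a feedback loop. Hepatocellular carcinoma is a tumor in which hypoxia and these factors have long been studied.

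Huh7SR is a pool of cells derived from the human hepatocellular carcinoma line Huh7 by long exposure to sorafenib, and it is called Huh7-R here. Cells received either fostamatinib, a spleen tyrosine kinase inhibitor given as a prodrug, or the solvent DMSO, with 3 samples in each group. The labels give 24 h and 2 µM, the latter also for DMSO. The methods state that sorafenib was in the maintenance medium of resistant cells and was withdrawn before experiments, and the oxygen level of the cultures is not given in the sources used here. No parental or hypoxic cells were among the 6 samples. All 6 samples come from 1 resistant cell pool, and nothing states that they were separate cultures, so p-values measure the spread between these samples, which may be technical.

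Reads on the listed genes numbered 13303451 to 15272737 per sample. Pairs of replicates differed by 1.65 to 3.75 times counting variance and pairs across groups by 39.8 to 44.5 times. Values are given as CPM, the read counts of a gene relative to the library size as scaled by the authors, or as log2 differences between the group means of log2 CPM, with fostamatinib minus DMSO throughout. A gene was called when its adjusted p-value was under 0.05 (limma, Benjamini-Hochberg over all 16305 genes). All 8 markers of the hepatocyte and Huh7 label (ALB, AFP, APOA1, APOB, TTR, SERPINA1, TF and GPC3) were measured. Their summed level was 4121 to 4393 CPM in DMSO and 5213 to 5575 CPM after fostamatinib, and each of the 8 was called higher. Of markers of other cell types, 5 of 7 for fibroblasts summed to 297 to 306 CPM in DMSO and 308 to 312 CPM after the drug, with DCN and THY1 not listed. Within this sum LUM was called lower (-0.40) and COL1A2 (0.37) and PDGFRB (0.95) higher. For leukocytes 2 of 6 (LYZ and CD14) summed to 9.83 to 11.2 and 9.67 to 11.7 CPM, and for endothelium 1 of 5 (PECAM1) stood at 6.13 to 6.96 and 8.76 to 9.93 CPM. Neither leukocyte marker was called, and PECAM1 was called higher (0.51). PTPRC, VWF and CDH5 were not listed. The part of these markers in the values below was not tested.

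Of the 10 genes, 7 were called lower after fostamatinib, 1 was called higher (NDRG1), and CA9 and ANKRD37 were not called. Among all genes 47.8% were called, 24.5% lower and 23.3% higher. The median log2 difference of the 10 genes was -0.42, beside 0.0015 over all genes. This median and the counts of this paragraph include EPAS1 and HIF1A, whose fall was known when the genes were chosen. The target genes called lower were EGLN1, EGLN3, VEGFA, ADM and BNIP3. In 7 of the 10 genes the 3 fostamatinib samples did not overlap with the 3 DMSO samples, a state found in 54.1% of all genes. For each of these 7 genes the exact permutation test over the samples gave p = 0.10 (two-sided, 0.143 after adjustment over the 10 genes), which is the smallest value that 3 samples against 3 allow. Therefore the adjusted p-values below rest on the spread that limma pools across genes.

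**Figure D1:**
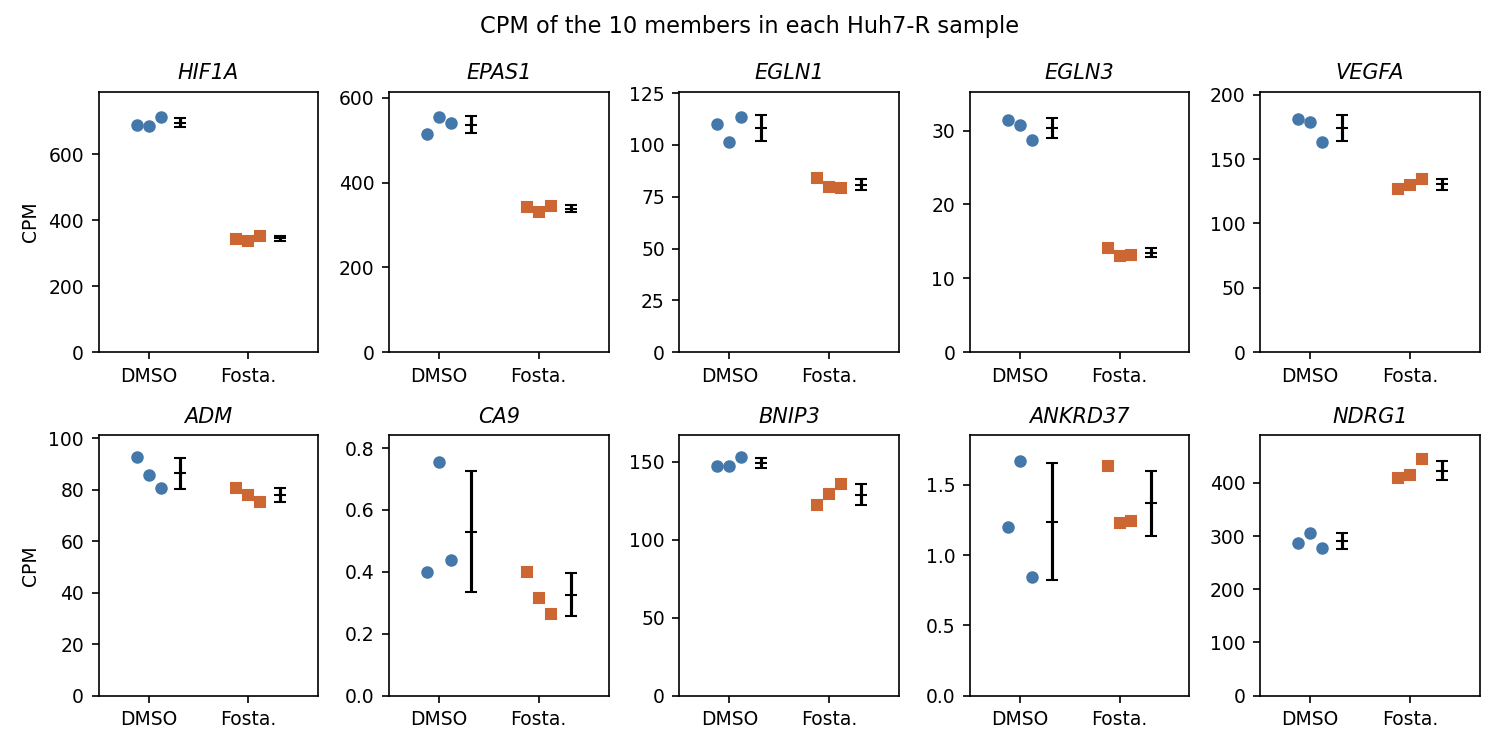
CPM (y axis, from 0) of each of the 10 genes in each sample, with blue circles for the 3 DMSO samples, orange squares for the 3 fostamatinib samples and black bars for the mean and SD. HIF1A, EPAS1, EGLN1, EGLN3, VEGFA and BNIP3 are lower in every fostamatinib sample, NDRG1 is higher in every one, and the groups of ADM, CA9 and ANKRD37 overlap.

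The HIF subunits moved in different directions. HIF1A (ENSG00000100644, GRCh37 chromosome 14 from 62162231 to 62214976, + strand, canonical transcript of 15 exons) stood at 689.7, 687.4 and 712.3 CPM in the DMSO samples and at 344.6, 337.5 and 353.8 CPM after fostamatinib. Every treated sample was thus close to 49.6% of the DMSO level, the value given by the log2 difference of -1.01 (SE 0.035, adjusted p = 6.56e-23). In bulk samples, fewer cells of a type and less RNA per cell cannot be told apart. EPAS1 (ENSG00000116016, chromosome 2 from 46524546 to 46613836, + strand, 16 exons), which encodes the HIF-2 alpha subunit, stood at 515.0, 554.8 and 541.0 CPM in DMSO and at 342.3, 329.7 and 345.0 CPM after the drug. The fall of EPAS1 was -0.66 on the log2 scale (SE 0.037, adjusted p = 4.25e-17), to 63.2% of the DMSO level, without overlap between the groups. ARNT, the constitutive partner of both, was the exception and rose by 0.33 (SE 0.050, adjusted p = 1.42e-06), from a mean of 1172 to 1380 reads. HIF3A and ARNT2 were not listed in the files and are not analysed here.

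The 2 alpha subunits did not fall to the same extent. Within each sample, log2 EPAS1 CPM minus log2 HIF1A CPM was -0.42, -0.31 and -0.40 in DMSO and -0.0098, -0.034 and -0.036 after fostamatinib. EPAS1 therefore gained 0.35 (SE 0.035) on HIF1A, and the 3 treated samples lay above all DMSO samples (exact permutation p = 0.10, 0.125 after adjustment over the 10 within-sample ratios computed). The same ratio of ARNT to HIF1A rose by 1.34 (SE 0.034, exact permutation p = 0.10, adjusted 0.125), from a mean of -3.12 to -1.78. Both ratios restate the log2 differences above, with a fall of HIF1A that was known beforehand, and are no separate evidence. The SE of each within-sample ratio rests on the spread of that ratio alone, without pooling across genes. An antisense gene, HIF1A-AS1, overlaps the start of HIF1A on the opposite strand, and had 3, 7 and 7 reads in DMSO and 4, 3 and 4 after the drug. It was not called (adjusted p = 0.587), and its reads are few beside the 4688 to 10586 reads of HIF1A. The library kit keeps strand, but whether the counting used it is not given in the sources used here.

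Levels of different genes were compared per length, as RPKM over the canonical transcript. In DMSO, HIF1A ranked first of the 10 genes with 176 ± 3.5 RPKM (SD, n = 3). EPAS1 followed with 104 ± 3.9 RPKM, and BNIP3 (96.7 ± 2.1) and NDRG1 (96.0 ± 4.8) came next with overlapping samples. The highest NDRG1 sample (101.2 RPKM) also lay above the lowest EPAS1 sample (99.9 RPKM). ADM (57.9 ± 4.1), VEGFA (48.3 ± 2.7), EGLN1 (25.0 ± 1.4) and EGLN3 (11.2 ± 0.51) were lower, and neighbors in this order did not overlap. After fostamatinib NDRG1 ranked first with 140 ± 6.2 RPKM. HIF1A (87.5 ± 2.1) and BNIP3 (83.6 ± 4.4) then overlapped, and EPAS1 came next with 65.8 ± 1.6 RPKM. ANKRD37 and CA9 were the lowest in both groups, with 1.53 and 0.32 RPKM in DMSO and 1.7 and 0.19 RPKM after the drug.

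**Figure D2:**
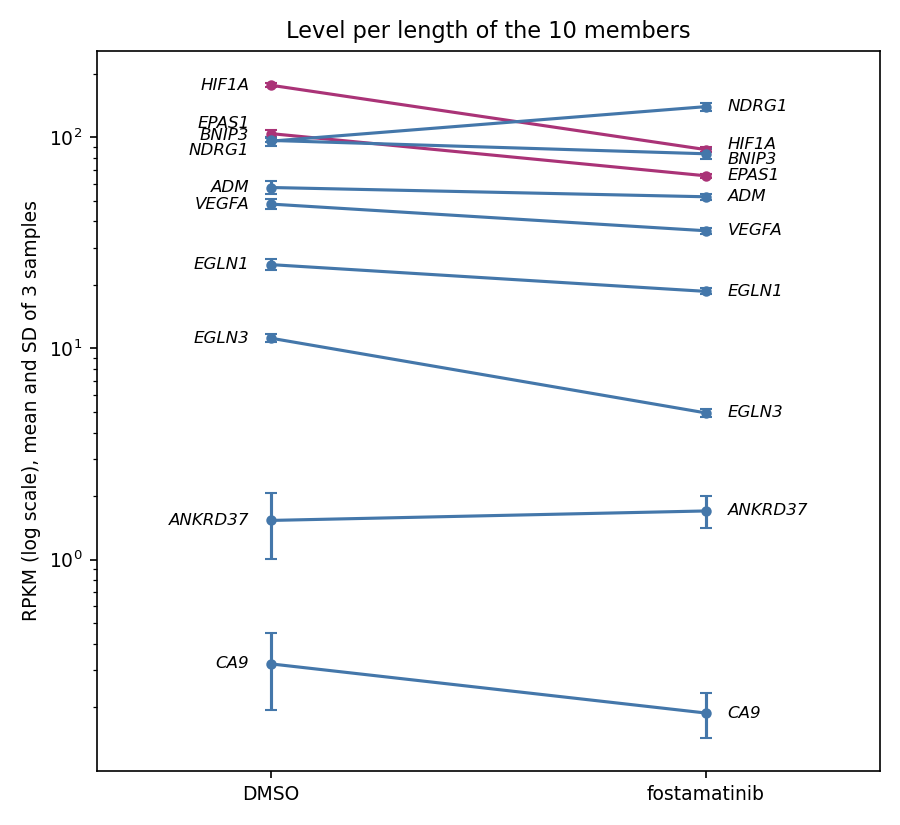
RPKM over the canonical transcript (y axis, log scale) of the 10 genes in DMSO and after fostamatinib, as mean and SD of 3 samples, with HIF1A and EPAS1 in purple. HIF1A leads in DMSO with 176 RPKM, and NDRG1 leads after the drug with 140 RPKM.

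The oxygen sensors fell, and by unequal amounts. EGLN1 (PHD2, ENSG00000135766, chromosome 1 from 231499502 to 231558033, - strand, 5 exons) is the main prolyl hydroxylase of HIF-1 alpha in most cells. It stood at 110.0, 101.3 and 113.3 CPM in DMSO and at 83.9, 79.6 and 79.1 CPM after fostamatinib, with a fall of -0.42 on the log2 scale (SE 0.050, adjusted p = 1.09e-08). EGLN3 (PHD3, ENSG00000129521, chromosome 14 from 34393433 to 34420280, - strand, 5 exons), the strongly hypoxia-inducible member of the family, stood at 31.4, 30.8 and 28.8 CPM in DMSO and at 14.1, 13.1 and 13.1 CPM after the drug. Its fall of -1.17 (SE 0.081, adjusted p = 1.63e-14) left 44.3% of the DMSO level. EGLN3 was the only target gene among the 10 whose value lay below that of HIF1A. The ratio of EGLN3 to EGLN1 within a sample dropped by 0.75 on the log2 scale (SE 0.077, exact permutation p = 0.10, adjusted 0.125), with all treated samples below all DMSO samples. The ratio of EGLN3 to HIF1A changed by -0.16 (SE 0.069, exact permutation p = 0.20, adjusted 0.222), and its groups overlapped.

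Among the 12 genes of oxygen sensing and HIF degradation, 5 fell (41.7%, beside 24.5% of all genes) and 3 rose (25.0%, beside 23.3%). The median of the 12 was -0.096. Besides EGLN1 and EGLN3, the genes that fell were the ubiquitin ligase SIAH2 (-0.31, adjusted p = 0.00142), which acts on EGLN proteins, and 2 parts of the VHL ubiquitin ligase, ELOC (-0.30, adjusted p = 5.56e-05) and CUL2 (-0.15, adjusted p = 0.00901). The call of CUL2 was lost without the mean-variance trend (adjusted p = 0.0634). Those that rose were HIF1AN (0.26, SE 0.046, adjusted p = 9.30e-06), the asparaginyl hydroxylase that restrains HIF activity, ELOB (0.27, adjusted p = 1.70e-04), which pairs with ELOC, and the transmembrane prolyl hydroxylase P4HTM (0.49, adjusted p = 0.0193). P4HTM had a mean of 55.3 and 72.3 reads, and its call was lost without the mean-variance trend (adjusted p = 0.095), without DMSO replicate 3 (0.31, adjusted p = 0.152) and without fostamatinib replicate 3 (0.40, adjusted p = 0.110). VHL itself (-0.13, adjusted p = 0.0712), EGLN2 (-0.063, adjusted p = 0.656), RBX1 (-0.013, adjusted p = 0.884) and SIAH1 (0.16, adjusted p = 0.0565) were not called. Leaving out fostamatinib replicate 3 brought VHL past the threshold (-0.17, adjusted p = 0.0345), and leaving out fostamatinib replicate 1 did so for SIAH1 (0.21, adjusted p = 0.0283).

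Both secreted peptides fell less than HIF1A. VEGFA (ENSG00000112715, chromosome 6 from 43737948 to 43754224, + strand, 8 exons), the principal angiogenic growth factor, stood at 181.3, 178.8 and 163.0 CPM in DMSO and at 126.4, 130.2 and 134.4 CPM after fostamatinib. The groups did not overlap, and the fall was -0.42 (SE 0.046, adjusted p = 1.29e-09), to 74.8% of the DMSO level. ADM (ENSG00000148926, chromosome 11 from 10326620 to 10328944, + strand, 4 exons), the vasodilator adrenomedullin, stood at 92.8, 85.7 and 80.6 CPM in DMSO and at 80.7, 78.2 and 75.4 CPM after the drug. Its lowest DMSO sample thus lay just below its highest fostamatinib sample. The fall of ADM was -0.14 (SE 0.053, adjusted p = 0.0245), and this call depended on single samples. It was lost without DMSO replicate 1 (-0.091, adjusted p = 0.223), without fostamatinib replicate 2 (adjusted p = 0.0643) or 3 (adjusted p = 0.121) and without the mean-variance trend (adjusted p = 0.152).

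The wider VEGF and adrenomedullin system was more uneven than its 2 leading ligands. Of 12 measured ligands and receptors 7 fell (58.3%, beside 24.5% of all genes) and 3 rose (25.0%, beside 23.3%). Their median was -0.24, and KDR and RAMP3 were not listed. FLT1, a VEGF receptor, fell from 69, 65 and 67 reads to 10, 12 and 10 reads, a log2 difference of -2.51 (SE 0.24, adjusted p = 6.14e-11). ADM2, the adrenomedullin paralog also called intermedin, fell from a mean of 572 to 159 reads (-1.76, SE 0.082, adjusted p = 2.84e-19). In contrast, RAMP1, an accessory subunit of the calcitonin receptor-like receptor, rose from 31.0 to 85.0 reads (1.52, SE 0.18, adjusted p = 7.34e-09). The VEGF relatives PGF (1.14, SE 0.13, adjusted p = 3.81e-09) and VEGFB (0.33, SE 0.076, adjusted p = 3.82e-04) rose as well, PGF from a mean of 67.0 to 138.7 reads. CALCRL and RAMP2 were not called.

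CA9 and ANKRD37 gave little information at this depth. CA9 (ENSG00000107159, chromosome 9 from 35673925 to 35681156, + strand), the membrane carbonic anhydrase often used as a marker of hypoxia, had 5, 11 and 6 reads in DMSO and 5, 4 and 3 reads after fostamatinib. Its log2 difference was -0.66 with a 95% confidence interval from -1.72 to 0.40 (adjusted p = 0.314). ANKRD37 (ENSG00000186352, chromosome 4 from 186317995 to 186321395, + strand) had 16, 25 and 12 reads in DMSO and 22, 17 and 16 reads after the drug. Its log2 difference of 0.19 had an interval from -0.44 to 0.82 (adjusted p = 0.645), and it turned to -0.060 without DMSO replicate 3. Neither interval excludes a fall as large as that of VEGFA. The related carbonic anhydrase CA12, with a mean of 309 and 316 reads, was not called either (0.12, SE 0.079, adjusted p = 0.217).

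BNIP3 fell slightly and NDRG1 rose. BNIP3 (ENSG00000176171, chromosome 10 from 133781188 to 133795427, - strand, 6 exons), a mitochondrial receptor for mitophagy, stood at 147.5, 147.1 and 152.9 CPM in DMSO and at 122.0, 129.2 and 135.6 CPM after fostamatinib. The groups did not overlap, and the fall was -0.21 (SE 0.045, adjusted p = 1.94e-04). A pseudogene copy, BNIP3P1, had a mean of 29.5 reads over the 6 samples, beside the 1678 to 2272 reads of BNIP3. How reads shared between the copies were counted is not given in the sources used here. NDRG1 (ENSG00000104419, chromosome 8 from 134249418 to 134309495, - strand, 16 exons), a cytoplasmic protein induced by hypoxia and other stresses, stood at 286.5, 306.3 and 278.1 CPM in DMSO. It reached 409.7, 415.0 and 444.3 CPM after the drug, above every DMSO sample, a rise of 0.54 (SE 0.040, adjusted p = 9.98e-14) to 146% of the DMSO level. With each sample left out in turn the rise of NDRG1 ranged from 0.51 to 0.58.

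Most targets therefore gained on HIF1A within the same sample. HIF1A itself fell steeply (-1.01), so any gene that fell less gains on it. The ratios below thus restate the log2 differences above and are no separate evidence about the targets. The log2 ratio to HIF1A rose by 0.59 (SE 0.052) for EGLN1, 0.59 (SE 0.068) for VEGFA, 0.80 (SE 0.038) for BNIP3, 0.87 (SE 0.084) for ADM and 1.56 (SE 0.060) for NDRG1. In each of these 5 ratios all fostamatinib samples lay above all DMSO samples (exact permutation p = 0.10, adjusted 0.125). NDRG1 had less CPM than HIF1A in every DMSO sample, with ratios of -1.27, -1.17 and -1.36, and more in every fostamatinib sample, with ratios of 0.25, 0.30 and 0.33.

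**Figure D3:**
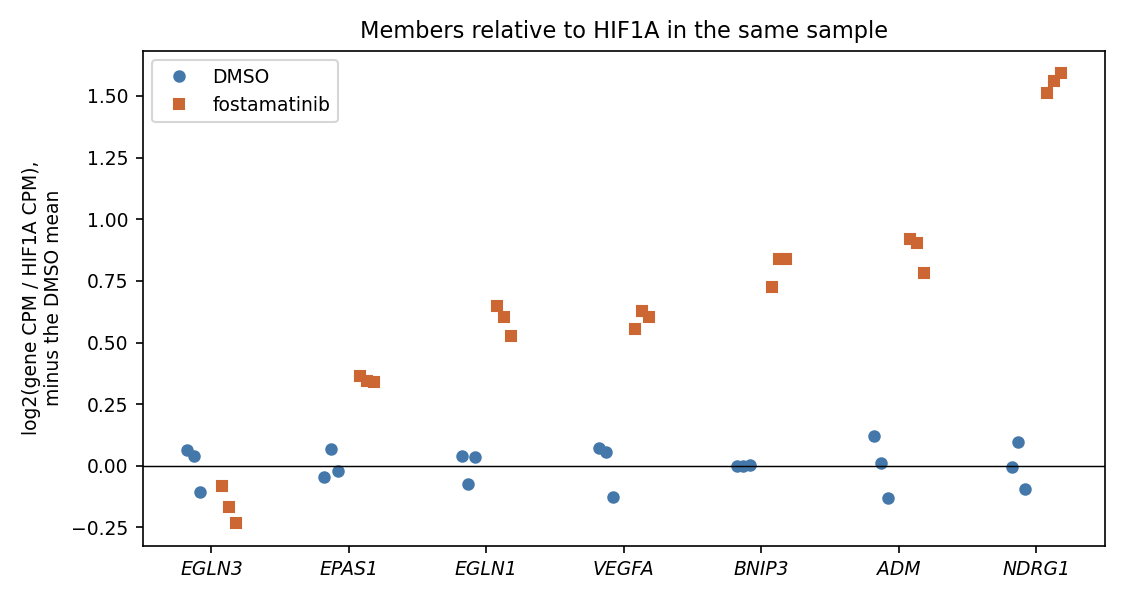
Log2 of each gene's CPM over the CPM of HIF1A in the same sample, minus the DMSO mean (y axis), for 7 genes, with blue circles for DMSO and orange squares for fostamatinib. EGLN3 stays near 0 with overlapping groups, whereas the other genes lie higher after the drug, by 0.35 for EPAS1 up to 1.56 for NDRG1.

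The promoters of the target genes were examined for the HIF core because the 8 targets differed in their response. RefSeq windows of 300 bases (GRCh38.p14, 250 before and 50 after the start) were found for 8 of the 10 genes, not for VEGFA and NDRG1. The letters ACGTG on either strand were present in 4 of these 8 windows and GCGTG in 4, against 21.4% and 36.5% of the 35116 windows of all genes. The stretches that hold ACGTG are shown to compare where the core lies. Capitals mark ACGTG or its reverse complement CACGT, and the palindrome CACGTG holds both.
EGLN1 (chr1:231422266-231422330, - strand): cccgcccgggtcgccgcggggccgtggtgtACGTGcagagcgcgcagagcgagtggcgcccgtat
CA9 (chr9:35673880-35673944, + strand): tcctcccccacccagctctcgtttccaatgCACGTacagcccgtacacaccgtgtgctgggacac
BNIP3 (chr10:131982022-131982087, - strand): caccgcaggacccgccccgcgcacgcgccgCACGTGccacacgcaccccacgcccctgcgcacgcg
ANKRD37 (chr4:185396649-185396732, + strand): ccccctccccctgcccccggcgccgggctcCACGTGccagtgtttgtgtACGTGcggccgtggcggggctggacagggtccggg

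The core of EGLN1 begins 13 bases and that of CA9 18 bases before the start, whereas those of BNIP3 and ANKRD37 begin 134 and 162 bases before it. ANKRD37 holds another core 143 bases before its start. EGLN1 and BNIP3, which hold a core, fell by 0.42 and 0.21 on the log2 scale, and EGLN3, whose window holds neither ACGTG nor GCGTG, fell by 1.17. The windows of HIF1A (the first of its 2 entries), EPAS1 and ADM held GCGTG but not ACGTG. Of the wider target genes described next, 50 had a window, and 29 of these held ACGTG. Among the 29 genes 17 were called lower (58.6%, beside 24.5% of all genes), with a median log2 difference of -0.42. Among the 21 without it 16 were called lower (76.2%), with a median of -0.52. A match of letters is not a binding site, and enhancers outside these windows were not examined. Whether the core bears on the response was not tested.

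The wider set of HIF targets leaned in the same direction as the 10 genes. Of 41 target genes outside glycolysis, all measured, 26 fell and 5 rose, and 10 were not called. That is 63.4% lower against 24.5% of all genes, and the median was -0.42. The 8 targets among the 10 genes are part of this list. Without them, and with the glycolytic targets joined, 34 of 53 genes fell and 5 rose, with a median of -0.43. Both target lists were chosen with earlier results of these data known. Their shares therefore describe the lists and are no independent support.

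The steep falls outside glycolysis included those of STC2 and RORA. STC2, a secreted glycoprotein also induced by amino acid and endoplasmic reticulum stress, fell from a mean of 3485 to 776 reads (-2.08, SE 0.046, adjusted p = 1.29e-28). RORA, a nuclear receptor, fell from 49, 51 and 52 reads to 7, 13 and 10 reads (-2.24, SE 0.27, adjusted p = 1.45e-08). Among called genes, the highest rise after NDRG1 was that of CITED2 (0.31, SE 0.037, adjusted p = 1.53e-08), which competes with HIF for the coactivator EP300. The histone demethylase KDM3A came next (0.18, SE 0.054, adjusted p = 0.00618). KDM4C lay above both (0.36, SE 0.16) but was not called (adjusted p = 0.0531). The call of KDM3A was lost without the trend (adjusted p = 0.0971) and without fostamatinib replicate 2 (adjusted p = 0.0728).

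A log2 difference below the -1.01 of HIF1A was found in 8 of the 61 targets, and the share over all genes was not computed. Besides STC2, RORA and EGLN3 these included, named after their values were seen, the transcriptional repressors BHLHE40 (-1.24, SE 0.045) and BHLHE41 (-1.06, SE 0.13), the lipoprotein receptor VLDLR (-1.13, SE 0.061) and NDUFA4L2 (-2.39, SE 0.58). NDUFA4L2 had 9, 17 and 10 reads in DMSO and 1, 1 and 4 reads after the drug. It passed the authors' filter through its DMSO reads alone, so its presence here was tied to a higher DMSO level. With at least 10 reads required in every sample, NDUFA4L2 and RORA had no value. Of the targets outside glycolysis 24 were then called lower and 6 higher, beside 26 and 5 in the main test. DDIT4, an inhibitor of mTORC1 that is also induced by other stresses, lay next to HIF1A with -0.99 (SE 0.051, adjusted p = 4.60e-18).

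**Figure D4:**
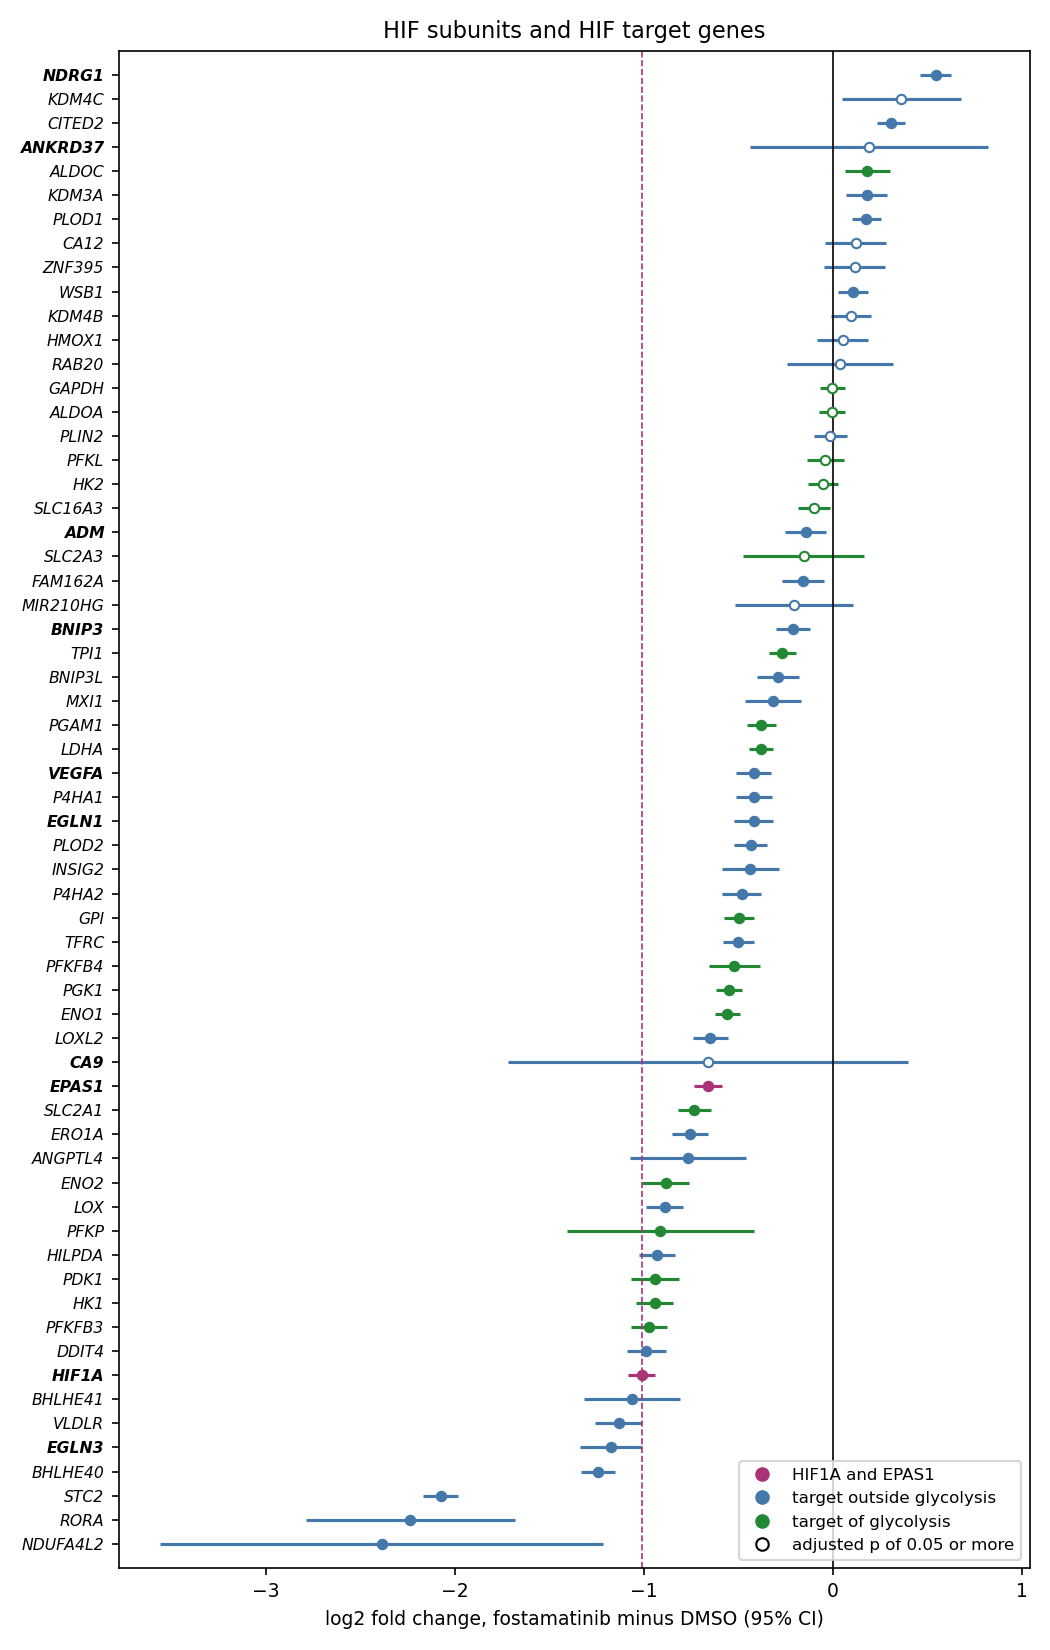
Log2 fold change of fostamatinib minus DMSO (x axis) with its 95% confidence interval for HIF1A and EPAS1 (purple), targets outside glycolysis (blue, 1 of the 41 not plotted) and 20 targets of glycolysis (green), in order of the value. Bold names mark the 10 genes, open circles genes that were not called and the dashed line HIF1A at -1.01, with 7 plotted targets below it and NDRG1 at the top with 0.54.

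Of the 20 glycolytic targets 13 fell (65.0%, beside 24.5% of all genes) and 1 rose (5.0%, beside 23.3%). The other 6 were not called, and the median of the list was -0.44. The falls were led by PFKFB3 (-0.97, SE 0.047, adjusted p = 7.32e-19), which makes an activator of phosphofructokinase, the hexokinase HK1 (-0.94, SE 0.049, adjusted p = 6.43e-18) and PDK1 (-0.94, SE 0.062, adjusted p = 4.03e-15), which restrains entry of pyruvate into mitochondria. The glucose transporter SLC2A1 (-0.73, SE 0.044), ENO1 (-0.56, SE 0.033) and LDHA (-0.38, SE 0.032), named after their values were seen, fell as well. ALDOC rose by 0.18 (SE 0.059, adjusted p = 0.0105), a call that was lost without the mean-variance trend (adjusted p = 0.0644) and without fostamatinib replicate 2 (adjusted p = 0.0535) or 3 (adjusted p = 0.0786). The uncalled genes included GAPDH at -0.0031 (95% confidence interval -0.067 to 0.061), ALDOA at -0.0065 (-0.075 to 0.062) and HK2 at -0.053 (-0.131 to 0.025). Glycolytic genes have many pseudogene copies, and reads shared with those could not be separated here.

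Genes known to favor EPAS1 over HIF1A were few and split, with 2 of 4 measured genes lower and 2 higher. Among all genes 24.5% were called lower and 23.3% higher. CCND1, which encodes cyclin D1, fell from a mean of 2967 to 1057 reads (-1.40, SE 0.047, adjusted p = 2.35e-23), and the iron transporter SLC11A2 fell by 0.39 (SE 0.051, adjusted p = 7.10e-08). IGFBP1, a liver-derived binding protein of insulin-like growth factors, rose by 0.39 (SE 0.046, adjusted p = 7.76e-09). EPO and TGFA were not listed in the files.

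**Figure D5:**
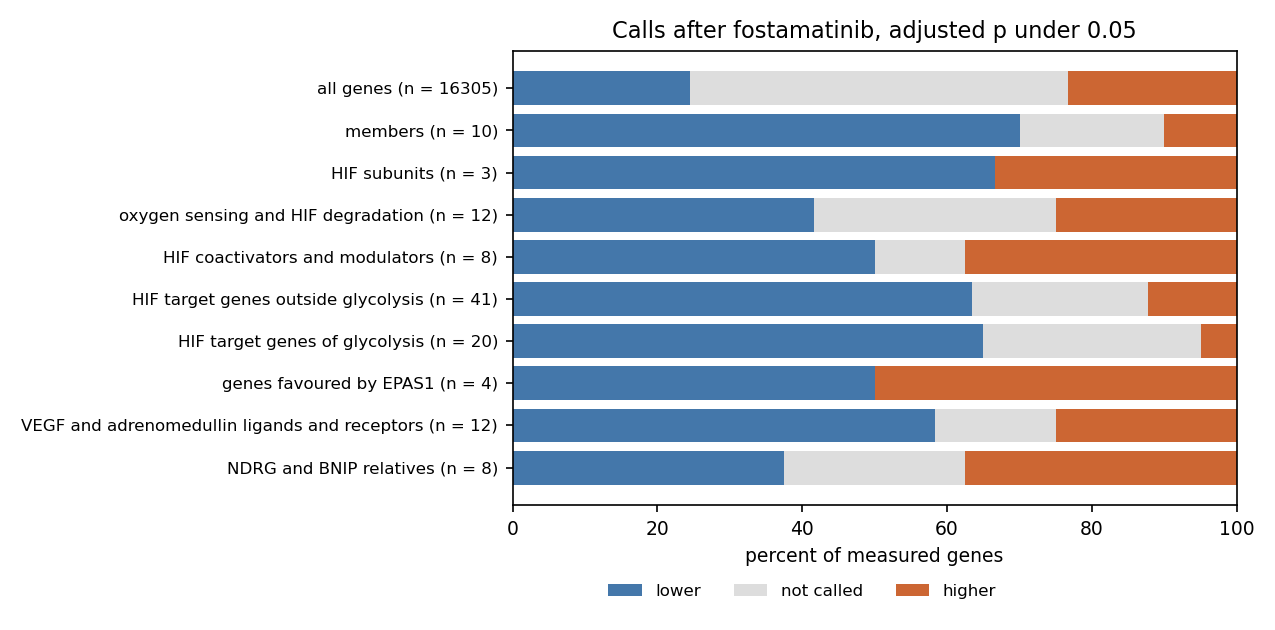
Percent of the measured genes of each list (x axis) called lower (blue), not called (gray) or called higher (orange) after fostamatinib, with all 16305 genes in the top bar. The lower share is 24.5% for all genes, 63.4% for targets outside glycolysis and 65.0% for glycolytic targets.

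The genes whose pattern over the 6 samples was most like that of HIF1A were STRIP2, RASEF and ESCO2. Likeness was the Euclidean distance between log2 CPM values, each gene centered on its mean over the samples, among the 10311 genes whose mean reached 100 reads. The distances were 0.063, 0.072 and 0.078, and the log2 differences -1.01, -0.999 and -0.963.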

How the data were processed

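RNA-seq reads of 3 fostamatinib-treated and 3 DMSO-treated Huh7-R samples had been mapped by the authors to hg19 with HISAT and counted with featureCounts on GENCODE 22. Tool versions are not given in the sources used here. Genes that fell short of 5 reads in 2 or more of the 3 samples, in each of the groups, had been dropped, and TMM scaling had been applied. The deposited values are log2 CPM with 0.5 added to each count.

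Reads were recovered from the deposited values (100% within 0.05 of a whole number). One identifier repeated on 7 rows was used once. The main test was limma (version 3.58.1, R version 4.3.3, eBayes with a mean-variance trend, treatment as the only term) on all 16305 genes, after the script was tested on simulated data. Python 3.11.15, pandas 2.3.3, scipy 1.17.1 and matplotlib 3.10.9 were used for the tables and plots. RPKM used canonical transcripts of GENCODE 44 mapped to GRCh37, the build named hg19, so lengths differ from those behind the counts.

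The members and lists were chosen with earlier results of these data known. Named were the 10 members, every measured gene of the subunit, sensing and antisense lists, up to 3 rises and 3 falls of each other list with at least 50 reads, and the 3 genes most like HIF1A. Of the genes so named, 2 are not reported here. Exact permutation tests were two-sided. The alternatives were voom weights, no trend, median-ratio factors, library size alone, at least 10 reads in every sample, 2 reads added, the replicate number as a block and leaving out each sample.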

Additional observations from a re-analysis of the deposited data

How the results depend on the processing

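The count of 7794 genes called ranged from 6382 (no trend) to 7977 with the replicate number as a block (replicate block). Both groups carry replicate numbers 1 to 3, but nothing in the labels ties them together. After subtraction of group means, samples of the same number correlated at 0.0457, -0.0576 and 0.0541, not every sample correlated best with its own number, and the block left 8 of the 10 members called. HIF1A, EPAS1, EGLN1, EGLN3, VEGFA, BNIP3 and NDRG1 kept their direction and call in all 13 alternatives, and ADM kept its call in 9. Without the trend, coactivators called lower numbered 2, targets outside glycolysis called higher 3 and glycolytic targets called higher 0, when fewer of all genes passed as well. With 1 sample left out, glycolytic targets called higher ranged from 0 to 1 and members called from 7 to 8, and the lone call higher of the glycolytic list (ALDOC) was lost without fostamatinib replicate 2 or 3. The values that changed sign were all uncalled: ANKRD37 (-0.060 to 0.44), EGLN2 (-0.12 to 0.0051), RBX1 (-0.075 to 0.022), ALDOA (-0.034 to 0.024) and GAPDH (-0.027 to 0.016) with samples left out, and GAPDH with median-ratio factors (0.00060). The alternative with no filter was not run because the deposited tables were already filtered, and CA9 has no value under the stricter filter. Depth limited what can be said of CA9 and ANKRD37, with means of 4.0 to 18.3 reads.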

Other observations

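The coactivators and modulators of HIF were split. Of 8 measured genes 3 rose (37.5%, beside 23.3% of all genes) and 4 fell (50%, beside 24.5%). Those that rose were the coactivators EP300 (0.20, SE 0.044, adjusted p = 3.04e-04) and CREBBP (0.17, SE 0.046, adjusted p = 0.00248) and their competitor CITED2. The largest falls were those of the chaperone HSP90AB1 (-0.29, SE 0.032, adjusted p = 2.57e-09), the redox factor APEX1 (-0.25, SE 0.043, adjusted p = 6.06e-06) and HSP90AA1 (-0.12, SE 0.032, adjusted p = 0.00219), whose call was lost without the mean-variance trend (adjusted p = 0.0812). CITED4 was not listed in the files.

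Of the 3 relatives of NDRG1, 2 rose as well, beside 23.3% of all genes. NDRG2 rose from a mean of 50.3 to 87.0 reads (0.89, SE 0.16, adjusted p = 1.77e-05) and NDRG3 from 1167 to 1402 reads (0.35, SE 0.047, adjusted p = 1.08e-07), and NDRG4 was not called (0.38, adjusted p = 0.153). The fall of BNIP3 was accompanied by those of BNIP3L, another mitophagy receptor (-0.29, SE 0.054, adjusted p = 2.79e-05), and BNIP2 (-0.30, SE 0.053, adjusted p = 9.09e-06), and BNIP1 was not called (-0.12, adjusted p = 0.325). The ratio of BNIP3 to BNIP3L within a sample changed by 0.079 (SE 0.075, exact permutation p = 0.40, adjusted 0.40), with overlapping groups.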
